A study of Mus musculus with 10 samples.

Results

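Mouse IM2 myotubes expressing mutant PABPN1-FLAG, labelled D7E, were compared with IM2 myotubes expressing wild type PABPN1-FLAG, labelled WTA, across all genes on an expression array. The members are the 3 D7E arrays and the 2 WTA arrays deposited in one raw table, chosen by their labels, which make 5 of the 10 samples of the series. IM2 is a mouse muscle cell line whose myoblasts fuse into multinucleated myotubes. In both groups confluent myoblasts were kept under fusion conditions for 4 days before RNA was taken, with no other treatment. The labels state that the mutant protein was present at about the WTA level. They give neither the promoter that drives the FLAG-tagged protein nor the number of clones behind each line, and do not say whether arrays of a group are separate cultures. Each p-value is thus set by how far these arrays scatter, and that scatter may be technical. Triplicates are named in the series text, while 2 WTA arrays were analysed here. Labels for WTA arrays 1 and 2 also appear with a second raw table of the series, which was not used.

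PABPN1 is the nuclear poly(A)-binding protein. It binds the growing poly(A) tail of a new messenger RNA, stimulates poly(A) polymerase, helps set the length of the tail and takes part in the choice between polyadenylation sites. Expansion of the alanine stretch at its amino terminus causes oculopharyngeal muscular dystrophy, a late-onset disease of the eyelid, throat and proximal limb muscles in which the mutant protein forms aggregates in muscle nuclei.

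Each array read 45281 probes, and 15656 to 16459 of them had a detection p under 0.05 on one array. The arrays fitted the muscle label: all 14 of the myotube marker genes found on the array were detected on all 5 arrays. Markers of other cell types were detected in part. On single arrays 4 to 6 of 9 fibroblast markers, 5 to 6 of 8 smooth muscle and pericyte markers, 1 to 4 of 8 endothelial markers and 0 to 3 of 7 leukocyte markers were detected. The summed fibroblast signal was 2868 to 3427 in WTA and 2102 to 3024 in D7E, and the groups overlapped. Most of that sum was Col1a1, at log2 levels of 11.26 and 11.44 in WTA and 11.09, 10.71 and 11.22 in D7E. Col1a1 by itself was lower on every D7E array than on both WTA arrays. The median log2 level of the fibroblast markers was 4.49 to 4.98 on single arrays, so the sum says little of the other members. Lum and Fap of the fibroblast list, Myh11 and Cnn1 of the smooth muscle list, and Ptprc, Lyz2 and Cd3e of the leukocyte list were detected on none of the arrays. Of 7 markers of dividing myoblasts, 5 and 4 were detected on the WTA arrays and 3 on each D7E array, and Pax7 and Ccna2 on none. The summed signal of those 7 markers was 149 to 150 in WTA and 72.5 to 102 in D7E. Scan brightness also differed between the groups. The median raw signal was 82.8 to 84.4 on the WTA arrays and 93.6 to 96.4 on the D7E arrays, and the brightest probe read 27184 to 30669 in WTA and 42999 to 45247 in D7E. The groups did not overlap in either measure. The part that brightness and dividing cells have in the results below was not tested.

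Levels below are log2 intensities after background correction and quantile normalization of the 5 arrays together, and differences are D7E minus WTA on that scale. A probe was tested if it was detected on at least 2 of the 5 arrays, and it was called where limma's moderated test gave an adjusted p under 0.05 (Benjamini-Hochberg over all 16802 tested probes, two-sided). Pabpn1, the gene that the cultures were made to express, measured 9.38 and 9.32 in WTA and 9.30, 9.72 and 10.73 in D7E replicates 1, 2 and 3. D7E replicate 3 was the highest of the 5 arrays and D7E replicate 1 the lowest, so the groups overlapped. The difference was 0.57 ± 0.33 (SE, adjusted p = 0.464). What share of this probe's signal comes from the introduced gene was not tested, and the median-centred arrays, in which the median of all tested probes was itself 0.31 higher in D7E, gave 1.09 (adjusted p = 0.0342). The differences were -0.10 for skeletal actin Acta1, -0.17 for desmin Des, -0.58 for muscle creatine kinase Ckm, and 0.48 for the myogenic regulator Myog. They were 0.18 for the atrophy ubiquitin ligase Fbxo32, -0.45 for the related ligase Trim63, and -0.35 for type I collagen Col1a1. None of these 7 genes was called (adjusted p from 0.187 to 0.847). Under median centring Acta1, Des, Ckm and Col1a1 turned positive, at 0.47, 0.43, 0.01 and 0.24. Once the shift of all probes was taken out, Acta1 and Des stayed positive, at 0.16 and 0.12. Ckm and Col1a1 were then negative, at -0.30 and -0.07.

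The mutant myotubes differed from the WTA myotubes at 71 of 16802 probes, or 0.423%, of which 39 (0.232%) were higher and 32 (0.190%) lower in D7E. Of the 21 named genes that fell, the arrestin Txnip, the myosin light chain Myl2, the kinase Pdk1 and the mitochondrial Mgarp had the biggest differences, from -1.82 to -1.61. Of the 24 that rose, the dipeptidase Dpep1, the channel protein Clic3, the chemokine Cxcl14 and the endocytic Pacsin1 had the biggest, from 1.80 to 1.44. The called probes named 45 genes, 24 higher and 21 lower, and 14 called probes have no gene symbol in the annotation. On all 71 called probes the D7E arrays lay wholly above or wholly below both WTA arrays, which the call itself largely fixes. Of all tested probes 16.1% lay wholly above and 16.3% wholly below. Of the 16802 tested probes, 2531 had an unadjusted p under 0.05, against 840 expected at that p if no probe differed. Probes on one array are not independent, and the excess was not tested. The call count rested on single arrays: it was 0 without WTA replicate 1, 0 without D7E replicate 1 and 0 without D7E replicate 2 (2129, 1626 and 1635 probes at an unadjusted p under 0.05), 64 without WTA replicate 2 and 244 without D7E replicate 3. With median centring in place of quantile normalization 1616 of 1648 called probes (98.1%) were higher in D7E, against 54.9% here, while each of the 45 named genes kept its direction under every setting in which it was tested.

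The sizes of these differences depend on the background correction. In the authors' normalized values 26 of the 45 named genes differed by less, by over 1.5 times, and 25 lost the call. The 20 that stayed called there were Dpep1, Clic3, Pacsin1, Slirp, Cfap52, Bola2, St6galnac2, Timm10b, Afdn, Fis1, Tmem256, Ramp1, Txnip, Nup210, Cldn2, Dupd1, Vldlr, Arrdc4, Alox5 and Tmem200b. Dpep1 differed by 0.71 there, against 1.80. Cxcl14 differed by 0.57 (adjusted p = 0.0852) there, by 0.62 (adjusted p = 0.0747) with quantile normalization alone and by 0.89 (adjusted p = 0.0595) with an offset of 50. Txnip (-1.66) and Vldlr (-1.38) moved by less in the authors' values.

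**Figure D1:**
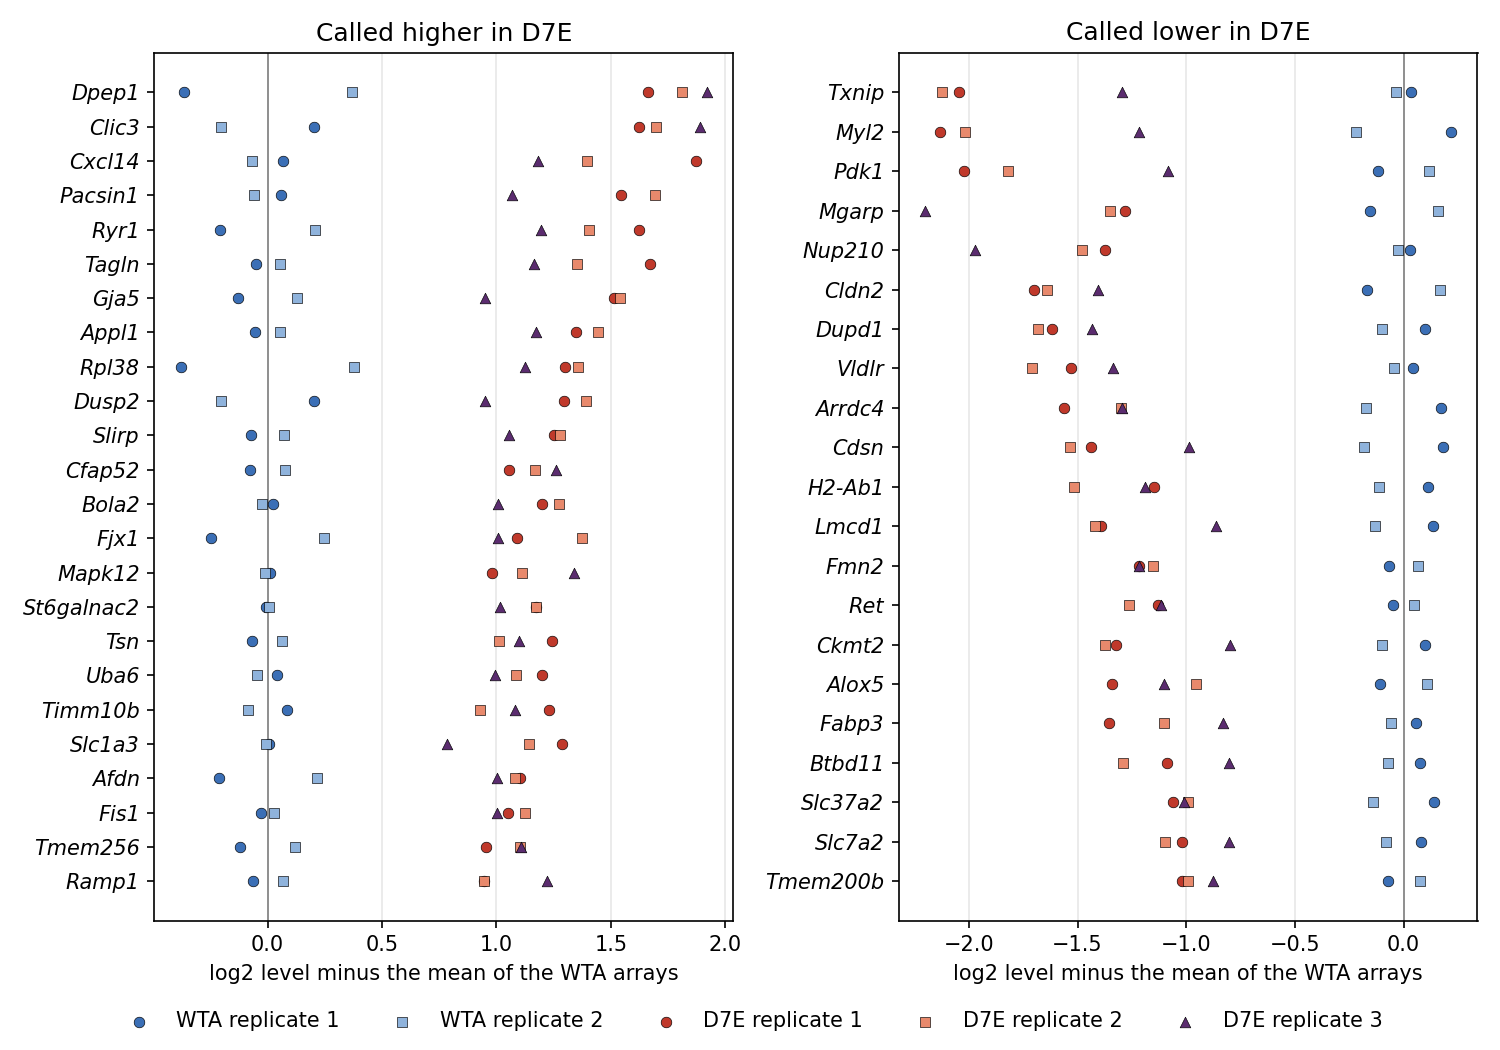
Each of the 45 named genes called between the groups is plotted as its log2 level on each array minus the mean of the WTA arrays, with genes called higher in D7E on the left and genes called lower on the right. The D7E points do not overlap the WTA points for any gene, which the call itself largely fixes. D7E replicate 3 (triangles) lies closest to WTA for Txnip, Myl2 and Pdk1 and farthest from it for Mgarp and Nup210.

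Txnip and Arrdc4, a pair of alpha-arrestins that lower glucose uptake and are induced by glucose through the Mlx and Mondo transcription factors, fell together. Txnip measured 10.84 and 10.77 in WTA and 8.76, 8.68 and 9.51 in D7E, with all D7E arrays below both WTA arrays and D7E replicate 3 the least low. The difference was -1.82 ± 0.24 (SE, adjusted p = 0.0193), and its other tested probe was also called at -1.50 (adjusted p = 0.0197). Arrdc4 measured 7.71 and 7.37 in WTA and 5.98, 6.24 and 6.25 in D7E. All D7E arrays were again lower, and here D7E replicate 3 was level with D7E replicate 2. The difference was -1.39 ± 0.19 (SE, adjusted p = 0.0193). Of the list of alpha-arrestins and their Mlx regulators, 6 genes were measured, of which 2 were called lower and 0 higher, against 0.409% of all tested genes called on their brightest probe. That share is also the background for the counts of calls in the lists below. The other members named by rule were Arrdc1 at -0.46 (adjusted p = 0.301), the glucose-sensing factor Mlxipl at -0.32 (adjusted p = 0.517) and Mlx at -0.22 (adjusted p = 0.636).

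The start regions of these genes are shown because both are known to carry the elements that the Mlx complexes bind. The sequences are RefSeq windows (GRCm38.p6) from 250 bases before to 50 bases after the gene's start, 5′ to 3′ on the gene's strand, at chr3:96557707-96558006 on the plus strand for Txnip and chr7:68749189-68749488 on the minus strand for Arrdc4. Capitals mark a pair of E-box-like half-sites in Txnip and an E-box, CACGTG, in Arrdc4, which are different motifs. The Arrdc4 window held no such pair, and the Txnip window held no CACGTG.
Txnip: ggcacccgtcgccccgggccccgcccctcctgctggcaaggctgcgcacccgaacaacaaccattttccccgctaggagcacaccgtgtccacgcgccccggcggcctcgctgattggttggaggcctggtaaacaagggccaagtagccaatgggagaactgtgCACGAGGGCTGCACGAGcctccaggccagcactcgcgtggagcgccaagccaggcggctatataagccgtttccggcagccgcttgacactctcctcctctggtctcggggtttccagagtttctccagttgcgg
Arrdc4: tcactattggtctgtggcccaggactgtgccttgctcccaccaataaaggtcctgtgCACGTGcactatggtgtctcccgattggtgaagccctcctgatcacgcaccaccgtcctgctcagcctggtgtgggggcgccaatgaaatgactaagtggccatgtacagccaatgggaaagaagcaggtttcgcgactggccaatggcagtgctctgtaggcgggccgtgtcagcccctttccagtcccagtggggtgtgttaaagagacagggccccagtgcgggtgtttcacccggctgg
The Txnip match holds CACGNG, where N is any base, followed after 5 letters by CACGNG again, searched on both strands, and begins 85 bases before the start. That pattern was in 16 of 32851 RefSeq windows of the same length, or 0.0487%. The Arrdc4 match is the palindrome CACGTG, which begins 193 bases before the start and was in 2349 windows, or 7.15%. The CCAAT box, as CCAAT on either strand, occurred 2 times in the Txnip window and 6 times in the Arrdc4 window, and 37.4% of all windows held at least 1. No overlap between these motifs was found in either window, and the matches describe letters, not binding.

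Genes of glucose breakdown and of the low-oxygen response lay mostly lower in D7E, and 2 of them were called. Pdk1, the kinase that shuts pyruvate out of the mitochondrial oxidation route and a target of the hypoxia-inducible factor, measured 7.03 and 7.26 in WTA and 5.12, 5.32 and 6.06 in D7E. D7E replicate 3 was nearest to WTA yet still below both of its arrays, and Pdk1 fell (-1.64 ± 0.26 SE, adjusted p = 0.0298). Mgarp, a mitochondrial protein induced by low oxygen, measured 7.38 and 7.69 in WTA and 6.25, 6.18 and 5.33 in D7E, where D7E replicate 3 was the lowest array. Mgarp fell as well (-1.61 ± 0.27 SE, adjusted p = 0.0364). Of the 22 measured hypoxia-inducible genes outside glycolysis, these 2 were called lower and 0 higher, against 0.409% of all tested genes called. The median difference of the list was -0.43, against -0.01 for all 9774 tested genes, each on its brightest probe. Under median centring it was -0.06, or 0.37 below the shift of all probes. Its D7E arrays lay wholly below WTA for 10 genes (45.5%), against 17.3% of all tested genes. Ak4, a mitochondrial adenylate kinase, measured 5.90 and 6.39 in WTA and 4.83, 5.03 and 5.28 in D7E, at -1.10 (adjusted p = 0.055). Egln3, an oxygen-sensing prolyl hydroxylase, measured 10.24 and 10.17 in WTA and 8.91, 8.87 and 9.64 in D7E, at -1.07 (adjusted p = 0.0754). The histone demethylase Kdm3a stood at -0.64 (adjusted p = 0.114). Neither Ak4, Egln3 nor Kdm3a was called, although their groups did not overlap. The transcription factor genes themselves differed little, with Hif1a at 0.09, Hif3a at -0.08 and the partner subunit Arnt at 0.06, and their groups overlapped.

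Of the 29 listed genes of glycolysis and glycogen, 21 were measured, of which 0 were called in either direction and 20 lay below 0. The D7E arrays lay wholly below both WTA arrays for 15 of the 21 (71.4%, against 17.3% of all tested genes) and wholly above for 0 (against 15.8%). The median difference was -0.54, which turned to 0.02 under median centring, 0.29 below the shift of all probes. The medians were -0.57, -0.61 and -0.30 in D7E replicates 1, 2 and 3, so D7E replicate 3 lay about midway between WTA and the other D7E arrays. Pygm, muscle glycogen phosphorylase, measured 9.38 and 9.23 in WTA and 8.51, 8.34 and 8.58 in D7E, with D7E replicate 3 the highest of the D7E arrays by a small margin. It stood at -0.83 ± 0.17 (SE, adjusted p = 0.0668). Pgm1, which interconverts glucose phosphates, measured 12.59 and 12.33 in WTA and 11.34, 11.15 and 12.01 in D7E. Pfkl, a subunit of phosphofructokinase, measured 11.03 and 11.01 in WTA and 9.57, 9.60 and 10.71 in D7E. For both genes D7E replicates 1 and 2 lay close together and D7E replicate 3 lay nearer to WTA, and the differences were -0.96 (adjusted p = 0.114) and -1.06 (adjusted p = 0.155). The aldolase Aldoa (-0.06), the enolase Eno3 (-0.05) and the mutase Pgam2 (0.12) had overlapping groups.

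**Figure D2:**
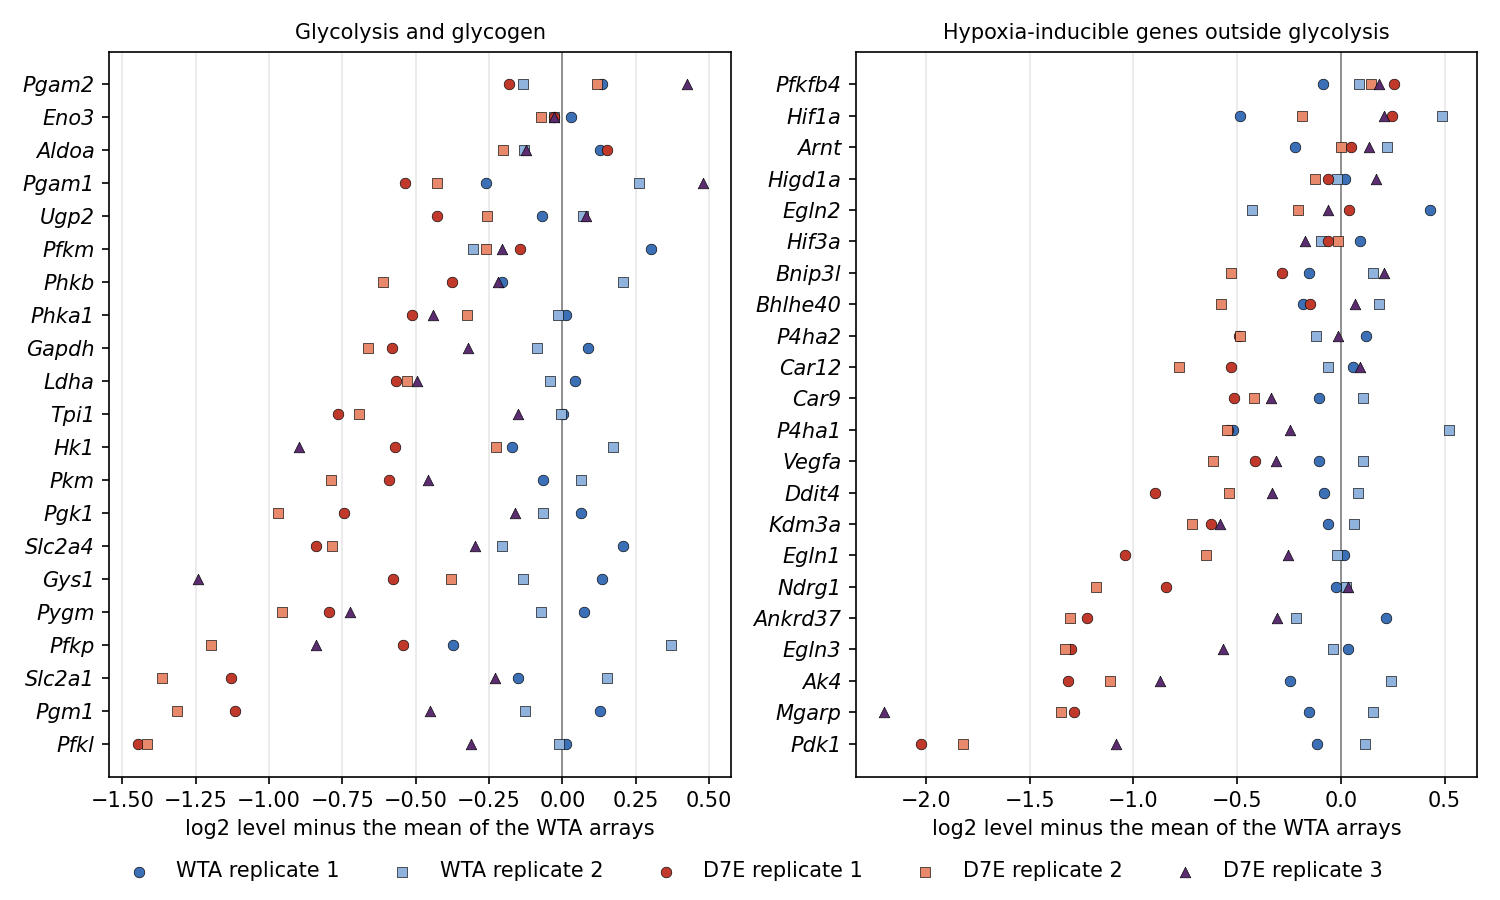
Measured genes of glycolysis and glycogen (left) and hypoxia-inducible genes outside glycolysis (right) are plotted as log2 level on each array minus the mean of the WTA arrays, ordered by the group difference. D7E replicates 1 and 2 lie to the left of WTA for most genes. Their list medians are -0.57 and -0.61 for glycolysis and -0.52 and -0.56 for the hypoxia list. D7E replicate 3 has medians of -0.30 and -0.21. With median-centred arrays the glycolysis median was 0.02, or 0.29 below the shift of all probes.

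A lipoprotein receptor, a fatty acid carrier and a mitochondrial creatine kinase were among the genes that fell in the mutant. Vldlr, the receptor that takes up very-low-density lipoprotein, measured 10.50 and 10.41 in WTA and 8.93, 8.75 and 9.12 in D7E. The D7E arrays lay close together and well below both WTA arrays, and Vldlr fell (-1.53 ± 0.18 SE, adjusted p = 0.0135). Of its 5 tested probes 3 were called, and all 5 were lower. Fabp3, the heart and muscle fatty acid-binding protein, measured 10.18 and 10.07 in WTA and 8.77, 9.03 and 9.30 in D7E and fell (-1.10 ± 0.19 SE, adjusted p = 0.0488), with no overlap. Of the list of lipoprotein receptors and fatty acid handling, 23 genes were measured. These 2 were called lower and 0 higher, against 0.409% of all tested genes called. Its median was -0.22 (0.17 under median centring, 0.14 below the shift of all probes). Of its genes 11 (47.8%, against 17.3% of all tested genes) lay wholly below WTA and 4 (17.4%, against 15.8%) wholly above. Uncalled members were the fatty acid-sensing receptors Ppard at -0.64 (adjusted p = 0.133) and Pparg at -0.63 (adjusted p = 0.143), and the acyl-CoA dehydrogenase Acadm at -0.52 (adjusted p = 0.192).

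Ckmt2, the mitochondrial creatine kinase of striated muscle, measured 11.65 and 11.46 in WTA and 10.24, 10.18 and 10.76 in D7E. All D7E arrays were lower, with D7E replicate 3 the least so. It fell (-1.16 ± 0.21 SE, adjusted p = 0.0488), and its other probe was called at -1.31 (adjusted p = 0.0332). The brain-type enzyme Ckb lay the other way, at 0.66 (adjusted p = 0.118), with 12.95 and 12.87 in WTA and 13.61, 13.70 and 13.41 in D7E, and was not called. Of 11 measured genes of creatine kinases and adenylate buffering, Ckmt2 was the 1 called. Alox5, the 5-lipoxygenase that starts leukotriene synthesis, measured 9.17 and 9.38 in WTA and 7.94, 8.32 and 8.17 in D7E. It fell on all 3 of its probes (-1.13 ± 0.18 SE, adjusted p = 0.0332 on the brightest). The sugar phosphate exchanger Slc37a2 (5.78 and 5.50 in WTA, 4.58, 4.65 and 4.63 in D7E) fell at -1.02 (adjusted p = 0.0381). The cationic amino acid transporter Slc7a2 fell on 1 probe (-0.97, adjusted p = 0.0488) while its other tested probe stood at 0.08.

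Among contractile genes, the change with the largest size was in a slow-fibre isoform. Myl2, a regulatory light chain of myosin in slow and cardiac fibres, measured 11.68 and 11.24 in WTA and 9.33, 9.44 and 10.24 in D7E. All D7E arrays lay below both WTA arrays, D7E replicates 1 and 2 close together and D7E replicate 3 nearer to WTA. Myl2 fell (-1.79 ± 0.27 SE, adjusted p = 0.0245). Of 11 measured slow-fibre genes it was the 1 called. The slow myosin heavy chain Myh7 measured 6.57 and 7.25 in WTA and 6.07, 6.22 and 5.76 in D7E, at -0.90 (adjusted p = 0.113). Myoglobin, Mb, stood at -0.54 (adjusted p = 0.182) and the slow tropomyosin Tpm3 at -0.54 (adjusted p = 0.194). The list's median was -0.21 (0.18 under median centring, 0.13 below the shift of all probes). Its D7E arrays lay wholly below WTA for 5 genes (45.5%, against 17.3% of all tested genes) and wholly above for 0 (against 15.8%). Of 13 measured fast-fibre genes 0 were called. Their median was 0.03, and -0.01 with quantile normalization alone or in the authors' normalized values. The fast myosin-binding protein Mybpc2 measured 7.47 and 7.12 in WTA and 6.01, 5.78 and 6.63 in D7E (-1.15, adjusted p = 0.073), and parvalbumin, Pvalb, 12.61 and 12.83 in WTA and 11.43, 11.33 and 12.63 in D7E (-0.92, adjusted p = 0.231). For Pvalb, D7E replicate 3 was as high as WTA while the other D7E arrays were lower.

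Lmcd1, a LIM domain protein of striated muscle, measured 10.69 and 10.42 in WTA and 9.16, 9.14 and 9.69 in D7E, with no overlap. It fell (-1.23 ± 0.21 SE, adjusted p = 0.044), and 2 of its 3 tested probes were called. Of 31 measured genes of the sarcomere scaffold, Z-disc and M-band it was the 1 called. The list's median was -0.16, which was 0.35 under median centring and then 0.04 above the shift of all probes. Uncalled members with the smallest p were the thin-filament assembly protein Nrap at -0.77 (adjusted p = 0.0746), the filament-capping Tmod1 at -0.75 (adjusted p = 0.0791) and the slow myosin-binding protein Mybpc1 at -0.86 (adjusted p = 0.0888). Ryr1, through which muscle releases stored calcium, was called higher on 1 of 5 tested probes, which measured 4.42 and 4.84 in WTA and 6.25, 6.03 and 5.82 in D7E (1.41 ± 0.20 SE, adjusted p = 0.0197) and was detected on 1 WTA array. Its other 4 probes differed by -0.31 to -0.10, in the opposite direction, and were not called. Which transcripts that probe reads was not tested. Of 18 measured genes of excitation-contraction coupling on their brightest probe, 0 were called. Rrad, a small GTPase that inhibits voltage-gated calcium channels, measured 8.96 and 8.61 in WTA and 7.11, 7.59 and 7.86 in D7E. It did not overlap and stood just outside the threshold, at -1.26 (adjusted p = 0.0512).

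Nup210, a membrane glycoprotein of the nuclear pore needed for myoblast differentiation in mouse cells, measured 8.54 and 8.49 in WTA and 7.14, 7.03 and 6.54 in D7E. All D7E arrays were lower, D7E replicate 3 the lowest, and Nup210 fell (-1.61 ± 0.21 SE, adjusted p = 0.0176). It was the 1 called of 34 measured genes of the nuclear pore and transport, whose median was 0.05 (0.40 under median centring, 0.10 above the shift of all probes). Cldn2, a pore-forming claudin of tight junctions, measured 8.76 and 9.10 in WTA and 7.23, 7.29 and 7.53 in D7E, without overlap. It fell on both of its probes (-1.58 ± 0.19 SE, adjusted p = 0.0135 and -1.63, adjusted p = 0.017). The adhesion protein Cdsn, known from skin, fell at -1.32 (adjusted p = 0.0332), while its other probe stood at -0.29. Dupd1, a dual-specificity phosphatase of muscle, measured 6.04 and 5.84 in WTA and was not well above background on any D7E array. On the scale used here its fall was at least 2.69-fold (adjusted p = 0.0135). Such bounds set the mean of the detected group against the higher of each dim array's lowest detected signal and the probe's own value. They hold only for the background correction and offset used here. The actin nucleator Fmn2 was not well above background on any D7E array, and the same held for the called probe of the receptor tyrosine kinase Ret, whose other tested probe was detected on 1 D7E array. Fmn2 fell at least 1.83-fold (adjusted p = 0.0197) and Ret, on the called probe, at least 2.09-fold (adjusted p = 0.0197). In the authors' normalized values the log2 differences were smaller than these bounds, at -0.50 for Dupd1, -0.39 for Fmn2 and -0.34 for Ret. Btbd11 (-1.06, adjusted p = 0.0488) and Tmem200b (-0.96, adjusted p = 0.0445) fell as well.

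H2-Ab1, a chain of the class II antigen-presenting molecule, measured 5.93 and 5.70 in WTA and 4.66, 4.30 and 4.62 in D7E, and was detected on 2 of 3 D7E arrays. It fell (-1.29 ± 0.19 SE, adjusted p = 0.0197), and its other 2 tested probes were lower without being called. H2-Eb1, its class II partner gene, measured 5.70 and 5.41 in WTA and 4.39, 4.34 and 4.82 in D7E (-1.05, adjusted p = 0.0572), and the peptide transporter Tap1 6.08 and 6.05 in WTA and 5.15, 5.18 and 5.39 in D7E (-0.83, adjusted p = 0.0662). Both had groups that did not overlap and missed the threshold. The interferon-induced Ifit3 stood at -0.45 (adjusted p = 0.289). The 20 measured genes of interferon response and antigen presentation had 5 wholly lower and 4 wholly higher, 25% and 20% against 17.3% and 15.8% of all tested genes, and a median of -0.12, which was 0.14 under median centring and 0.17 below the shift of all probes. The leukocyte markers Ptprc, Lyz2 and Cd3e were not detected on any array, and of 7 leukocyte markers 0 to 3 were detected on one array.

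The connexin gene Gja5 and the actin-binding Tagln rose, whereas the junction gene Cldn2 and the actin nucleator Fmn2, given above, fell. Gja5, the gap junction protein connexin 40, measured 9.61 and 9.87 in WTA and 11.26, 11.28 and 10.70 in D7E. The D7E arrays were all higher, with D7E replicate 3 the least so. It rose (1.33 ± 0.22 SE, adjusted p = 0.0332), and all 4 of its tested probes were higher, 2 of them called. Of 11 measured genes of claudins, connexins and tight junctions, 1 was called higher (Gja5) and 1 lower (Cldn2). Tagln, the actin-binding transgelin of smooth muscle and of contractile non-muscle cells, measured 5.20 and 5.31 in WTA and 6.93, 6.60 and 6.42 in D7E. The groups were wide apart, and Tagln rose (1.40 ± 0.19 SE, adjusted p = 0.0197). It was the 1 called of 19 measured genes of smooth muscle and serum response factor targets. The myosin light chain Myl9 measured 7.73 and 8.10 in WTA and 8.85, 8.89 and 8.96 in D7E and lay at the threshold, at 0.99 ± 0.18 (SE, adjusted p = 0.0501). The growth factor-like Ccn2 stood at 1.07 (adjusted p = 0.0868) and smooth muscle actin Actg2 at 1.22 (adjusted p = 0.119). The list's D7E arrays lay wholly above WTA for 10 genes (52.6%, against 15.8% of all tested genes) and wholly below for 1. Its median was 0.28 (0.69 under median centring, 0.38 above the shift of all probes). Of 8 smooth muscle and pericyte markers, 5 were detected on each WTA array and 6 on each D7E array. Their summed signal overlapped between the groups, at 40500 to 47810 in WTA and 42040 to 43650 in D7E. Bright members set that sum, among them Des, also a myotube marker, at 13.84 and 13.55 in WTA and 13.52, 13.58 and 13.47 in D7E. The median level of the markers was 5.17 and 5.09 in WTA and 5.85, 5.77 and 5.71 in D7E. The sum therefore says little of the dimmer members.

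Pacsin1, an endocytic protein that bends membranes, measured 9.10 and 8.98 in WTA and 10.59, 10.74 and 10.11 in D7E. It rose (1.44 ± 0.21 SE, adjusted p = 0.0197) without overlap, and its other 2 tested probes were higher. Clic3, a chloride intracellular channel protein, measured 5.40 and 4.99 in WTA and 6.82, 6.89 and 7.08 in D7E and rose (1.74 ± 0.19 SE, adjusted p = 0.0135). Afdn, the junction adaptor afadin, rose on 1 probe at 1.06 (adjusted p = 0.0445), while its other tested probe stood at 0.26 (adjusted p = 0.520). Appl1, an endosomal adaptor that binds the adiponectin receptor, was called on 1 probe (1.32, adjusted p = 0.0188), and its other 2 probes, with -0.18 and 0.01, were not.

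Slirp, Fis1, Timm10b, Bola2 and Tmem256 rose, while the mitochondrial genes Ckmt2, Mgarp and Pdk1, described above, fell. Slirp, an RNA-binding protein that stabilises messenger RNAs inside mitochondria, measured 8.66 and 8.80 in WTA and 9.98, 10.01 and 9.78 in D7E. The D7E arrays were tightly grouped above both WTA arrays. It rose on both probes (1.19 ± 0.17 SE, adjusted p = 0.0197 and 0.94, adjusted p = 0.0488). Its binding partner Lrpprc measured 7.48 and 7.90 in WTA and 6.96, 7.23 and 6.83 in D7E and lay the other way, uncalled, at -0.69 (adjusted p = 0.156). Slirp was the 1 called of 12 measured genes of mitochondrial mRNA stability, whose median was -0.16 (0.26 under median centring, 0.04 below the shift of all probes). Fis1, which recruits the mitochondrial fission machinery, measured 7.46 and 7.51 in WTA and 8.54, 8.61 and 8.49 in D7E and rose (1.06 ± 0.16 SE, adjusted p = 0.0266). Timm10b, a chaperone of import into the inner membrane, rose at 1.08 (adjusted p = 0.0332), with its other 2 tested probes also higher. Bola2, which takes part in iron-sulphur cluster handling, measured 8.05 and 8.01 in WTA and 9.23, 9.30 and 9.04 in D7E and rose (1.16 ± 0.17 SE, adjusted p = 0.0207). The membrane protein gene Tmem256 rose on its dimmer probe at 1.06 (adjusted p = 0.0332), while its brighter probe stood at 0.54 (adjusted p = 0.172).

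Subunits of oxidative phosphorylation lay higher in part. Of 70 measured, 0 were called, 27 (38.6%, against 15.8% of all tested genes) lay wholly above WTA and 8 (11.4%, against 17.3%) wholly below. The median was 0.15 (0.72 under median centring, 0.41 above the shift of all probes). The cytochrome oxidase subunits Cox7a2 (0.79, adjusted p = 0.0703) and Cox6c (0.85, adjusted p = 0.0836) and the complex III subunit Uqcrq (0.72, adjusted p = 0.0776) came nearest to the threshold. Of 74 mitochondrial ribosomal proteins, 0 were called, 23 (31.1%, against 15.8%) lay wholly above WTA and 3 (4.1%, against 17.3%) wholly below. Their median was 0.10 (0.60 under median centring, 0.29 above the shift of all probes), with Mrpl52 nearest at 0.73 (adjusted p = 0.0776). The cytosolic ribosomal proteins lay mostly above WTA. Of 48 measured genes 34 (70.8%, against 15.8% of all tested genes) lay wholly above WTA and 2 wholly below. The median was 0.37, and it was 0.39, 0.35 and 0.37 in D7E replicates 1, 2 and 3, so D7E replicate 3 was not nearer to WTA than both others here. Under median centring the median was 0.98, or 0.67 above the shift of all probes. Rps21 measured 11.52 and 11.66 in WTA and 12.61, 12.44 and 12.26 in D7E (0.84, adjusted p = 0.0703). Rpl30 stood at 0.84 (adjusted p = 0.0784) and Rpl28 at 0.60 (adjusted p = 0.155). Rpl38 was called on its dimmer probe (1.26, adjusted p = 0.0488), while its bright probe stood at 0.43 (adjusted p = 0.325), so that 0 of the 48 were called on their brightest probe. Ribosomal protein genes have many processed copies in the genome, and reads of such copies by a probe were not separated. Scan brightness, which differed between the groups, was not tested for a part in these shifts.

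The remaining genes that rose have varied roles. Dpep1, a membrane dipeptidase, measured 4.51 and 5.24 in WTA, where it was detected on 1 array, and 6.54, 6.69 and 6.79 in D7E. It rose (1.80 ± 0.22 SE, adjusted p = 0.017) with no overlap. The chemokine Cxcl14 measured 4.98 and 4.85 in WTA and 6.78, 6.31 and 6.09 in D7E and rose (1.48 ± 0.22 SE, adjusted p = 0.0197), the 1 called of 7 measured chemokines. Dusp2, a nuclear phosphatase of mitogen-activated kinases, measured 8.61 and 8.21 in WTA and 9.71, 9.80 and 9.36 in D7E and rose (1.21 ± 0.20 SE, adjusted p = 0.0381), so that of 20 measured dual-specificity phosphatases 1 was called higher and Dupd1 lower. Mapk12, a p38 kinase abundant in skeletal muscle, measured 6.01 and 5.98 in WTA and 6.98, 7.11 and 7.34 in D7E. All its 3 tested probes were higher and 1 was called (1.15 ± 0.18 SE, adjusted p = 0.0266). Ramp1, a subunit of the receptor for calcitonin gene-related peptide, rose at 1.04 (adjusted p = 0.0397). The glutamate transporter Slc1a3 was not well above background on either WTA array. On the scale used here its rise was at least 1.66-fold (adjusted p = 0.0488), while its log2 difference in the authors' normalized values was 0.35. The sialyltransferase St6galnac2 (1.12, adjusted p = 0.021), the ubiquitin-activating enzyme Uba6 (1.09, adjusted p = 0.0258) and the nucleic acid-binding translin Tsn (1.12, adjusted p = 0.0255) rose. So did Fjx1 (1.16, adjusted p = 0.0486), a relative of the fly four-jointed gene, and the ciliary gene Cfap52 (1.16, adjusted p = 0.0197). The other tested probes of St6galnac2 (0.27, adjusted p = 0.634) and Fjx1 (0.19, adjusted p = 0.787) were not called, and their groups overlapped.

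The machinery in which PABPN1 itself works showed no called member. Of 28 measured genes of the poly(A) tail and 3′ processing, 5 lay wholly above WTA and 7 wholly below, which is 17.9% and 25% against 15.8% and 17.3% of all tested genes. The median was -0.04, and it turned to 0.07 without D7E replicate 3 and to 0.38 under median centring (0.08 above the shift of all probes). The cleavage factor Cstf3 measured 8.48 and 8.20 in WTA and 8.96, 9.12 and 8.91 in D7E (0.66, adjusted p = 0.127), poly(A) polymerase Papola 8.73 and 8.29 in WTA and 7.90, 8.06 and 7.83 in D7E (-0.58, adjusted p = 0.194), and the deadenylase Parn stood at -0.52 (adjusted p = 0.239). The Cstf3 value was higher and the Papola value lower on all D7E arrays than on both WTA arrays. Of 47 splicing factors and hnRNPs, 0 were called, with Snrnp70 nearest at 0.79 (adjusted p = 0.0747). Genes of DNA replication and mitosis lay lower, with 0 called and a median of -0.25 (-0.02 under median centring, 0.325 below the shift of all probes). Of 31 measured, 14 (45.2%, against 17.3% of all tested genes) lay wholly below WTA and 1 (3.2%, against 15.8%) wholly above. The replication helicase subunit Mcm5 stood at -0.83 (adjusted p = 0.0689), the centromeric histone Cenpa at -1.11 (adjusted p = 0.0711) and topoisomerase Top2a at -0.75 (adjusted p = 0.0732). The 4 measured markers of dividing myoblasts, Top2a, Birc5, Cdk1 and Rrm2, are all members of this list and so give no separate evidence. The summed signal of the marker set, given above, was 149 to 150 in WTA and 72.5 to 102 in D7E.

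Several listed genes missed the threshold narrowly without overlap of the groups. The insulin-like growth factor carrier Igfbp2 measured 4.81 and 5.16 in WTA and 5.81, 6.25 and 6.01 in D7E (1.03, adjusted p = 0.0569), and the insulin receptor substrate Irs2 6.06 and 5.95 in WTA and 5.03, 4.77 and 5.27 in D7E (-0.98, adjusted p = 0.0572). The first was higher and the second lower in D7E. The protease inhibitor Timp1 stood at 0.90 (adjusted p = 0.0572), the matrix protease Mmp3 at -1.01 (adjusted p = 0.058) and the serine protease Htra3 at -1.19 (adjusted p = 0.0595). The mitochondrial chaperonin Hspe1 stood at 0.83 (adjusted p = 0.0655) and the stress-response factor Atf3 at -0.92 (adjusted p = 0.0695). The ligases and factors of muscle atrophy (13 measured), the proteasome (40), autophagy and lysosome (24), collagens and matrix (29) and the Notch pathway (15) each had 0 called genes and medians between -0.13 and 0.08.

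**Figure D3:**
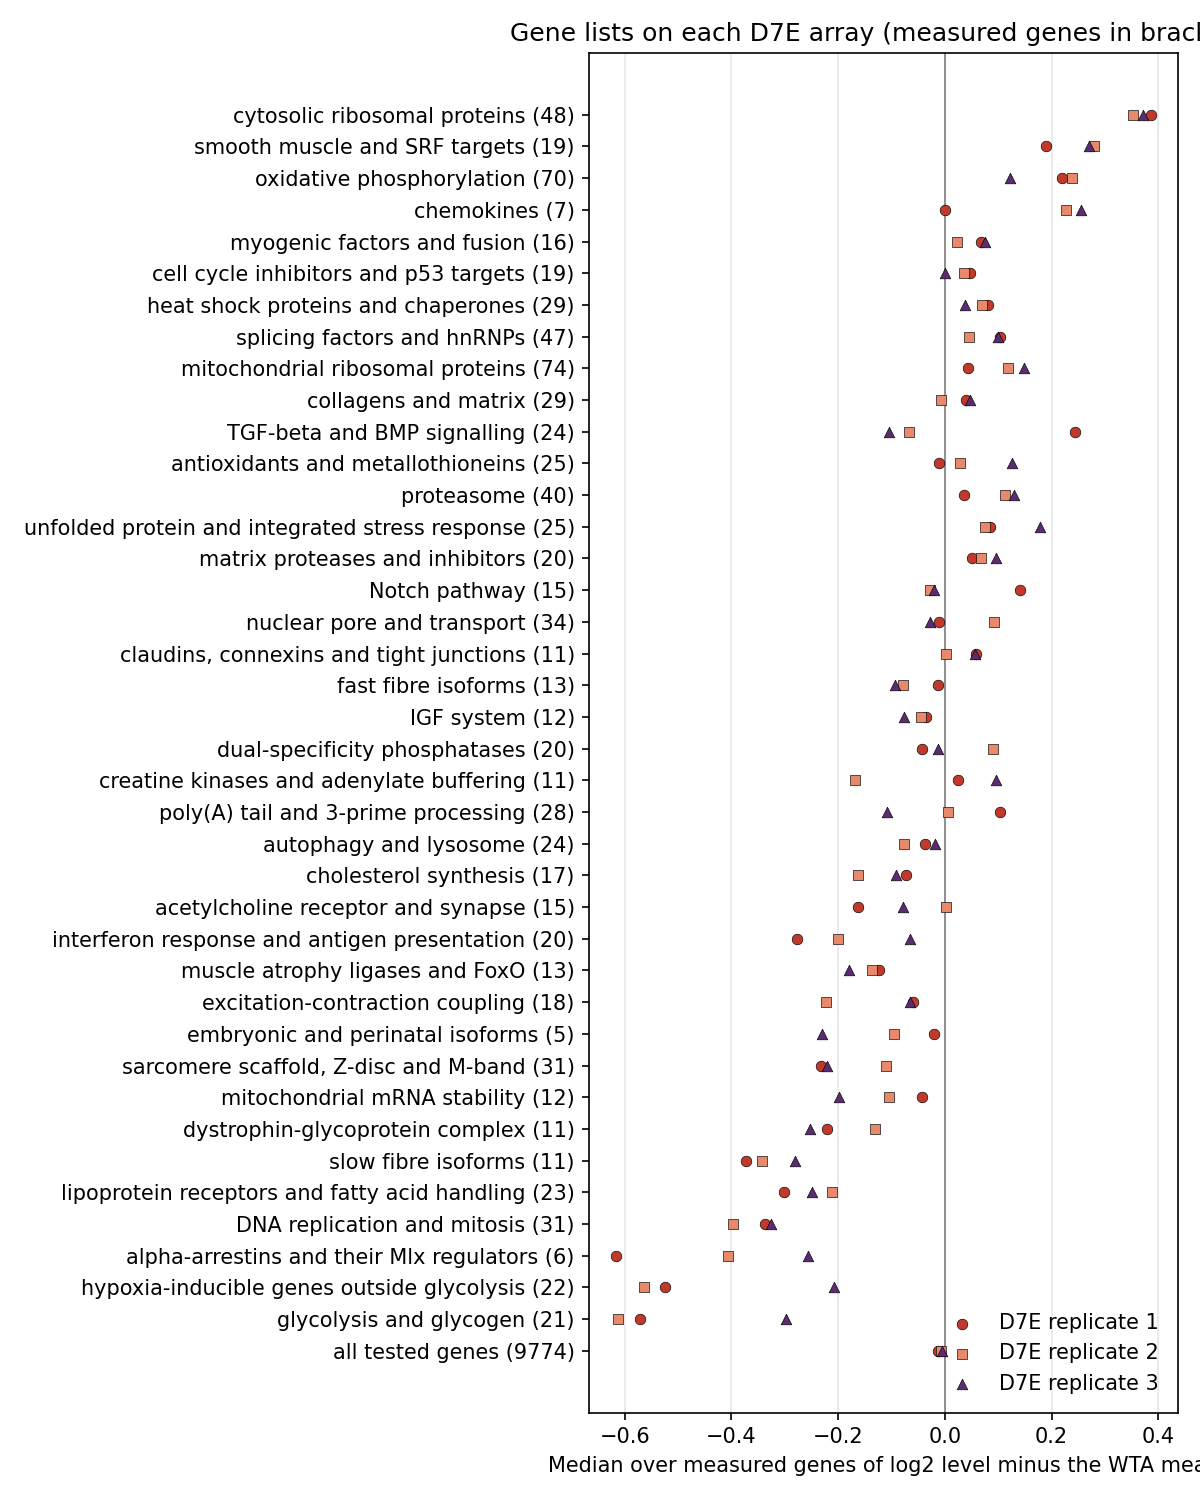
For each gene list with at least 5 measured genes, the median log2 level of its genes minus the WTA mean is plotted for each D7E array, with the number of measured genes in brackets and all tested genes in the bottom row. Cytosolic ribosomal proteins are highest, at 0.35 to 0.39, and glycolysis, hypoxia-inducible genes and alpha-arrestins lie below -0.40 in D7E replicates 1 and 2 but between -0.21 and -0.30 in D7E replicate 3; 17 of 40 list medians changed sign with median-centred arrays, glycolysis among them, and 11 of 40 once the shift of all probes was taken out.

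D7E replicate 3 stood apart from D7E replicates 1 and 2. Between D7E replicates 1 and 2 the standard deviation of the log2 differences over the 16802 tested probes was 0.248, and 12 probes differed by over log2 1. D7E replicate 3 differed from them with standard deviations of 0.351 and 0.348, and by over log2 1 at 180 and 193 probes. The WTA arrays differed from each other by more than any pair of D7E arrays did, with a standard deviation of 0.395 and 350 such probes, of which 293 were higher in WTA replicate 2. Pairs of one WTA and one D7E array had 285 to 536 such probes. Of the sum of squares within the D7E group, 46.5% fell on replicate 3, 27.1% on replicate 1 and 26.4% on replicate 2. In a principal component analysis of the 5 arrays the first component, with 42.8% of the variance, separated WTA from D7E, the second (25.1%) the WTA arrays from each other, and the third (22%) D7E replicate 3 from the rest.

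**Figure D4:**
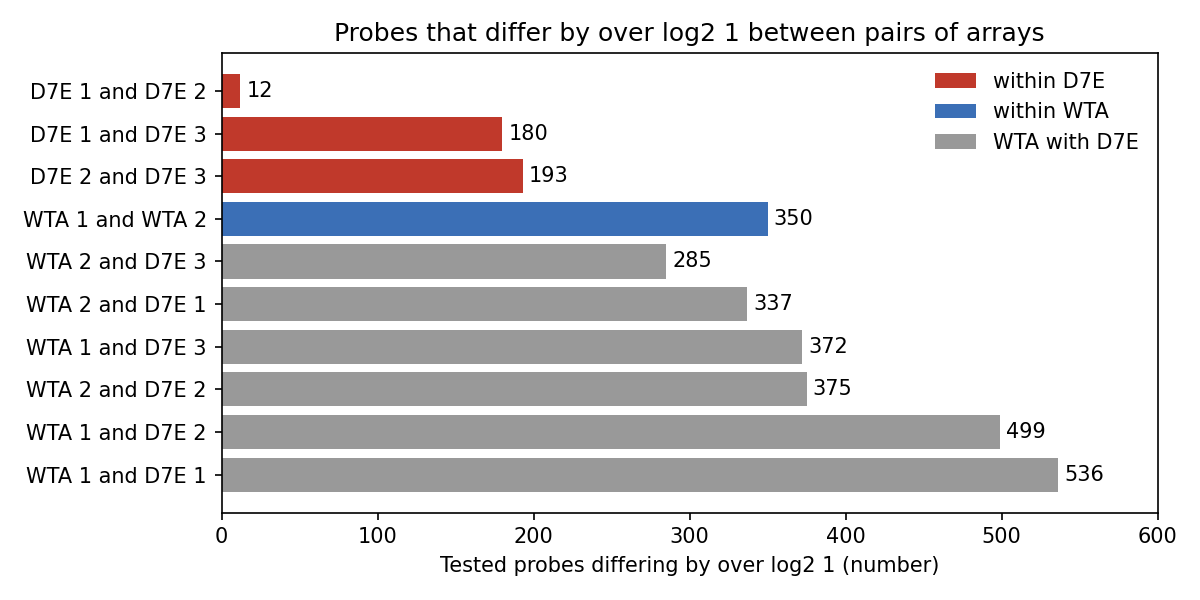
Bars give the number of tested probes that differed by over log2 1 between each pair of arrays, within D7E (red), within WTA (blue) and between the groups (grey). D7E replicates 1 and 2 differ at 12 probes, both pairs with D7E replicate 3 at 180 and 193, and the WTA arrays at 350.

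D7E replicate 3 lay over log2 1 from both other D7E arrays, on the same side of them, at 101 of 16802 probes (0.601%), 37 above and 64 below, against 1 probe for replicate 1 and 2 for replicate 2. At 93 of the 101 it was nearer to the WTA mean than to the mean of replicates 1 and 2, a count that the choice of probes far from those replicates largely fixes. It was within log2 0.5 of WTA, with replicates 1 and 2 outside that range, at 55 probes, and the reverse held at 20. At the other 26 neither was within log2 0.5 of WTA, and 19 of those had D7E replicate 3 on the opposite side of WTA. Over all tested probes D7E replicate 3 was within log2 0.5 of WTA at 14370 of 16802. The count of 101 was 23 after quantile normalization with no background step and 20 in the authors' normalized values, in which replicates 1 and 2 each had 0.

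The genes with the widest gaps included secreted factors and growth regulators. They were picked by the gap, so the levels are descriptions with no test. Ptn, the heparin-binding growth factor pleiotrophin, had the widest gap above the others, 2.98. It measured 6.44 and 7.55 in WTA and 4.42, 4.93 and 7.90 in D7E. D7E replicate 3 was above both WTA arrays while the other D7E arrays were below them. Nrn1, the neurite growth protein neuritin, measured 7.19 and 7.51 in WTA and 5.04, 5.02 and 7.07 in D7E, and Cav1, the caveola protein, 7.05 and 6.94 in WTA and 5.64, 5.50 and 7.11 in D7E. For both, D7E replicate 3 was at the WTA level. The BMP antagonist Grem1 measured 5.91 and 5.91 in WTA and 4.80, 5.07 and 6.40 in D7E, with D7E replicate 3 the highest array. Rpl3l, the ribosomal protein form of striated muscle, measured 8.11 and 8.13 in WTA and 6.07, 5.85 and 7.37 in D7E, where D7E replicate 3 lay between the other D7E arrays and WTA. Sprr2k, Prelp, Olfml3, Wfdc1 and Slc44a3 made up the 10 widest gaps above.

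Below the other D7E arrays, the cyclin-dependent kinase inhibitor Cdkn1c had the widest gap, -2.0. It measured 8.56 and 8.27 in WTA and 10.38, 10.44 and 8.38 in D7E, so D7E replicate 3 was at the WTA level and replicates 1 and 2 were well above it. Spink4, a secreted protease inhibitor, measured 5.03 and 5.01 in WTA and 7.39, 7.50 and 5.44 in D7E, and the GABA receptor-linked Jakmip1 4.64 and 4.68 in WTA and 6.69, 6.78 and 4.73 in D7E. Both showed D7E replicate 3 near WTA. Fxyd6, a regulator of the sodium pump, measured 8.97 and 9.00 in WTA and 9.10, 9.20 and 7.56 in D7E, and the limb transcription factor Tbx4 5.64 and 5.71 in WTA and 6.22, 6.05 and 4.24 in D7E. For these D7E replicate 3 was the array apart, below all the others. Wfdc2, Mfap2, Ntn5, Clip4 and Dmrta2 made up the 10 widest gaps below, and the other 2 tested probes of Mfap2 had gaps of only -0.41 and -0.49.

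**Figure D5:**
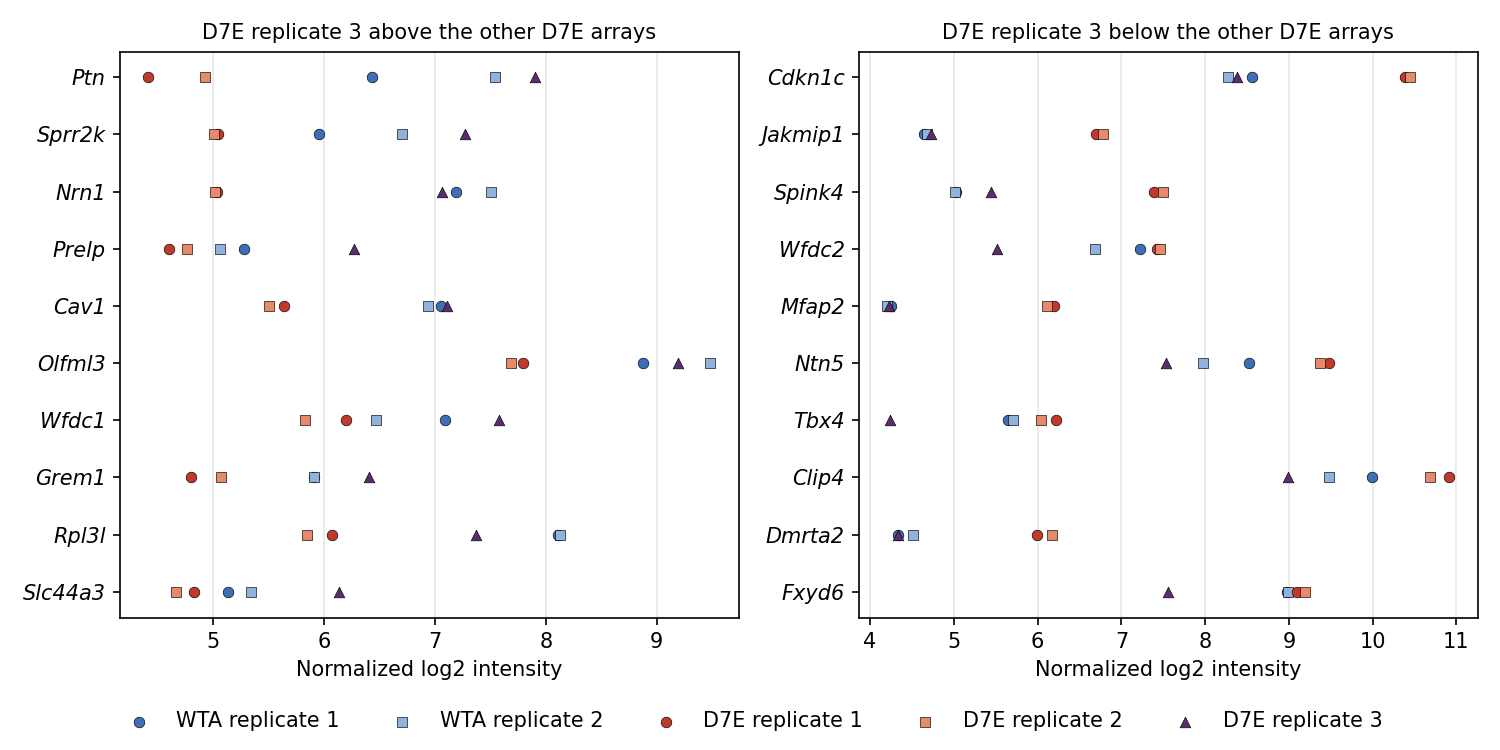
Normalized log2 intensity on each array is shown for the 10 genes with the widest gap of D7E replicate 3 above the other D7E arrays (left) and the 10 with the widest gap below (right). D7E replicate 3 (triangles) lies with the WTA arrays for Nrn1, Cav1, Cdkn1c, Jakmip1 and Mfap2, and outside all other arrays for Ptn, Prelp, Tbx4 and Fxyd6.

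Leaving out D7E replicate 3, 244 of 16131 tested probes (1.51%) were called, 143 higher and 101 lower, and 70 of the 71 probes called with all arrays were among them. On those 244 probes the left-out D7E replicate 3, whose values took no part in the calls, lay beyond both WTA arrays on the same side at 200, between them at 28 and beyond them on the opposite side at 16. The WTA arrays helped choose these probes and are also the reference here, so the count of 200 is in part fixed by the choice. Over all tested probes, all 3 D7E arrays lay above both WTA arrays at 16.1% and below both at 16.3%. Those shares need every D7E array to lie beyond WTA, so they are no background for D7E replicate 3 alone. The share for D7E replicate 3 alone was not counted. D7E replicate 3 moved as far as the nearer of the other D7E arrays at 20 of the 244, and less than 50% of the way at 125. The median size of the difference from the WTA mean was 1.18 in D7E replicate 1, 1.21 in replicate 2 and 0.610 in replicate 3. Values of replicates 1 and 2 chose the probes, so their sizes are a description. With all arrays, D7E replicate 3 was the D7E array nearest to the WTA mean at 50 of the 71 called probes, against 13 for replicate 1 and 8 for replicate 2. Ptn, Nrn1, Rpl3l, Cdkn1c, Spink4, Pfkl and Pvalb were called without D7E replicate 3 and not with it. Their differences without it were -2.31 for Ptn, -2.31 for Nrn1, -2.16 for Rpl3l, 1.98 for Cdkn1c, 2.41 for Spink4, -1.42 for Pfkl and -1.33 for Pvalb. Ptn, Nrn1, Rpl3l, Cdkn1c and Spink4 are among the genes picked by the gap of D7E replicate 3. Their calls without that array largely follow from that choice, so these differences are descriptions.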

How the data were processed

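Total RNA of the myotubes was amplified, labelled with biotin and hybridised to Illumina mouse bead arrays, per the labels' protocols. The authors deposited raw intensity per probe and array, with the scanner's detection p-value beside it, per the file headers. The authors' deposited log2 values, whose columns share one distribution, served as an alternative; which software made them was not stated in the labels. The WTA and D7E arrays were normalized together with limma 3.58.1 (R 4.3.3): neqc with the detection p-values and an offset of 16, then lmFit and eBayes with no covariate. The log2 difference between probes of one gene had a correlation of 0.456 across 3340 genes, which are not independent replicates. On simulated data limma recovered 34 of 100 probes changed by log2 1 and 90 of 100 changed by log2 2, with 5 false calls. The simulated noise was independent for each probe and array, with no deviation shared across an array. Its count of false calls therefore does not carry over to these arrays.

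Gene names came from GEO's platform annotation: 34885 probes had 1 symbol, 18 several and 10378 none. A gene's levels are those of its brightest called probe, or of its brightest tested probe in lists and where no probe was called. Named genes are all called genes with a symbol, 8 fixed genes, the called and the 3 best uncalled members of each list, and the 10 widest gaps of D7E replicate 3 on each side. Hif1a, Hif3a, Arnt, Aldoa, Eno3 and Pgam2 were chosen after their values were seen. The members and lists were chosen with earlier results of these data known. The number of arrays limits the precision. Alternatives changed the background correction, normalization, offset, filter, variance model, array weights, replicate block and the arrays left out.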

Additional observations from a re-analysis of the deposited data

How the results depend on the processing

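The number of called probes was 71, and it moved to 1648 with median centring, 0 with every probe tested (4387 with p under 0.05 before adjustment), 212 with an intensity trend, 158 with array weights and 225 with the replicate block. Leaving out 1 array gave 0 to 244 calls. It stayed within 1.5 times with quantile normalization alone (83), the authors' values (85), an offset of 50 (77), a stricter filter (50) and log2 before the quantile step (74), the last chosen after seeing the data. The causes were not tested. Of the 45 named called genes, 20 stayed called in the authors' values, 22 with quantile normalization alone, 27 with the offset of 50, 33 with the stricter filter, 39 with median centring, 17 without WTA replicate 2 and 45 with array weights, the trend or without D7E replicate 3. Pabpn1 was past the threshold with median centring alone (1.09, or 0.78 above the shift of all probes), and gave 0.16 to 0.88 when 1 array was left out. Reversed values came from median centring, at 0.468 for Acta1, 0.426 for Des, 0.011 for Ckm and 0.235 for Col1a1. With the shift of all probes taken out, Acta1 (0.161) and Des (0.119) stayed reversed, while Ckm (-0.296) and Col1a1 (-0.072) did not. Leaving out 1 array also reversed Acta1, which ranged from -0.241 without WTA replicate 2 to 0.041 without WTA replicate 1. The count of probes with D7E replicate 3 apart was 101, 23 with quantile normalization alone, 20 in the authors' values and 139 with median centring. Replicate numbers did not pair the arrays: deviations of same-numbered arrays correlated at -0.05 and -0.03, and the block gives D7E replicate 3 no partner. Dim probes limit the lower end, since a level near background understates a difference.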
